A study of Mus musculus with 34 samples.

Results

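The Rbfox, Nova and Ptbp genes encode RNA-binding proteins that control neuronal splicing, and 8 of them were followed here across chemical treatments of N2A cells, a mouse neuroblastoma line. The members are Rbfox1, Rbfox2, Rbfox3, Nova1, Nova2, Ptbp1, Ptbp2 and Ptbp3, chosen by gene name, and they are 8 of the 52661 genes of the deposited expression table. Their own splicing was read from 199 of 401633 events, 85 of them exons. Of these events, 168 carry a member's name and 31 are listed under Rod1, the older symbol of Ptbp3. RNA was measured by polyA+ RNA-seq after 24 h in 34 libraries, all with 0.4% DMSO as the vehicle. DMSO alone had 3 libraries, the HDAC inhibitors Vorinostat (SAHA), CI-994, BRD6688 and BRD4884 had 2 each, and 23 other compounds had 1 each. The study selected these compounds in reporter screens for microexon splicing, and classed 17 of them, the HDAC inhibitors included, as activators of microexon inclusion and 10 as inhibitors. All libraries come from 1 cell line. The methods call the libraries of an HDAC inhibitor biological replicates, without describing how the cultures were kept apart, and p-values measure the spread between these libraries.

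Between 33489679 and 75977986 exon event reads were available per library, and in each library 56317 to 62733 exon events had enough reads, evenly placed, to be used. Neuroblastoma markers were present in DMSO, among them Hand2 at 248 and Phox2a at 78.9 RPKM. None of the 6 glial, 6 fibroblast and 6 immune or endothelial markers exceeded 5 RPKM there, and their summed levels over all conditions ranged from 2.8 to 7.63, from 0.35 to 23.4 and from 0.91 to 8.07 RPKM. Their part in the results was not tested.

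PTBP1 and its paralogs bind pyrimidine-rich RNA and mostly repress exons, and PTBP1 gives way to PTBP2 as neural precursors differentiate. PTBP1 also promotes skipping of an exon of Ptbp2, which shifts the reading frame and exposes the transcript to decay. RBFOX proteins bind GCAUG and NOVA proteins bind YCAY clusters, and both either promote or repress an exon depending on where they bind beside it.

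The exons at which these regulators are themselves spliced carry much of what follows, so their sequences are given first, read 5′ to 3′ on the coding strand from the GRCm38 genome with GENCODE vM21. The splicing table uses mm9, and an event was matched to an annotated exon by the lengths of the exon and of its flanking introns, which placed 71 of the 85 exon events, 65 of them by both introns. Each exon shown is coding. The 34-nt exon shared by the Ptbp genes lies at chr10:79862014-79862047 on the plus strand in Ptbp1, at chr3:119724612-119724645 on the minus strand in Ptbp2, and at chr4:59485339-59485372 on the minus strand in Ptbp3. Capitals mark bases unlike Ptbp1 at the same position.
Ptbp1 34-nt exon: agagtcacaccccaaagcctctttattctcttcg
Ptbp2 34-nt exon: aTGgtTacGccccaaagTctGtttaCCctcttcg
Ptbp3 34-nt exon: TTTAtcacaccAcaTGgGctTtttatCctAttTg
The exon was identical at 26 of 34 bases between Ptbp1 and Ptbp2 (76.5%), at 22 between Ptbp1 and Ptbp3 (64.7%) and at 21 between Ptbp2 and Ptbp3 (61.8%). Since 34 is not a multiple of 3, skipping shifts the reading frame in each gene.

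Ptbp3 holds a second, alternatively spliced exon of the same length, at chr4:59546149-59546182 on the minus strand of GRCm38, and Rbfox2 holds a 51-nt exon at chr15:77231387-77231437 on the minus strand, the length of which keeps the frame. They are shown because their inclusion differed between compounds.
Ptbp3 alternative 34-nt exon: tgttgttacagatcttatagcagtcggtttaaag
Rbfox2 51-nt exon: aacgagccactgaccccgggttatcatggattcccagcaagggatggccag
A 40-nt exon, again not a multiple of 3, occurs in Rbfox2 at chr15:77094451-77094490 on the minus strand, in Rbfox1 at chr16:7363865-7363904 on the plus strand and in Rbfox3 at chr11:118496351-118496390 on the minus strand. Capitals mark bases unlike Rbfox2.
Rbfox2 40-nt exon: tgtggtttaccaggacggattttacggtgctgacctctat
Rbfox1 40-nt exon: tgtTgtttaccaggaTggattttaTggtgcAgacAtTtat
Rbfox3 40-nt exon: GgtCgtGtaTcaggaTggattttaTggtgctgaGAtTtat
Rbfox1 and Rbfox2 were identical at 34 of these 40 bases (85%), against 27 of 43 (62.8%) in a neighbouring 43-nt exon and 86 of 93 (92.5%) in a 93-nt exon of the RNA-binding domain.

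The first question was how much of each regulator N2A cells hold, and in which compounds that level moved. Levels per length are given as RPKM, read numbers normalised for transcript length and library size, deposited as 1 value per condition with replicates merged, so that they carry no spread and no test, and the order of close neighbours cannot be resolved. Ptbp1 was the highest in DMSO at 476.41 RPKM, above 99.6% of the genes listed. Ptbp2 followed at 88.96, Rbfox2 at 56.52, Ptbp3 at 39.07 and Nova1 at 21.24 RPKM. Nova2 and Rbfox1 were low, at 6.43 and 5.07 RPKM, and Rbfox3, the gene of the mature neuron marker NeuN, was listed at 0. Rbfox3 also stayed below 1 RPKM in every compound, with 0.71 RPKM in CI-994 as its highest value. In these bulk samples, fewer cells with a transcript and less of it per cell cannot be told apart.

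Ptbp2 had the largest ratio of highest to lowest level among the 7 measurable members, 5.99, from 24.22 RPKM in Vorinostat to 145.17 in RDR00572, a screening compound classed as an activator. Next to Vorinostat stood CI-994 at 29.71, BRD4884 at 44.7, the AKT inhibitor A-443654 at 50.58 and BRD6688 at 56.48 RPKM. At the upper end stood the TRK inhibitor GNF-5837 at 136.17 and the screening compounds S02045 at 133.33 and BTB12021 at 132.87 RPKM. All 5 of the lowest and all 4 of the highest values thus came from activators. The inhibitors lay between, from 65.7 to 93 RPKM.

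Ptbp1, the repressor of Ptbp2 exon inclusion, ran from 240.76 RPKM in Vorinostat to 656.85 in T5635931. The 5 inhibitors T5635931, AW00693 (609.84), T5985871 (590.94), T5758020 (568.14) and T5963258 (522.29) and the activator BTB13120 (523.06) were above the other conditions. The median over activators was 392 RPKM and that over inhibitors 501. The RPKM of Ptbp1 was 5.36 times that of Ptbp2 in DMSO. This ratio was lowest in GNF-5837 at 2.48 and RDR00572 at 2.78, and highest in CI-994 at 14.1 and Vorinostat at 9.94.

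Rbfox2 ran from 40.67 RPKM in the WEE1 inhibitor MK-1775 to 86.74 in BTB13120, with medians of 63.6 over activators and 50.5 over inhibitors. Nova2 ran from 2.41 in T5985871 to 12 in GNF-5837, with medians of 7.14 and 4.76. Nova1 ran from 7.92 in CI-994 to 26.87 in GNF-5837, and Ptbp3 from 23.88 in MK-1775 to 51.71 in BTBS00065. GNF-5837 thus held the highest level of both Nova genes. Rbfox1 was lower than in DMSO in 25 of 27 compounds by value, from 1.94 in T5985871 to 5.81 RPKM in BRD4884.

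A value was counted past the fold when it was over 2-fold from DMSO on the log2(RPKM + 0.5) scale with more than 5 RPKM in either condition. Of 189 pairs of member and compound, 9 passed it (4.76%), against 6.53% of all pairs of gene and compound. All 9 were lower than DMSO, where the share over all genes was 3.86% lower and 2.67% higher. Ptbp2 accounted for 2 of them, with a log2 ratio of -1.86 in Vorinostat and -1.57 in CI-994. Nova1 accounted for 3, at -1.30 in Vorinostat, -1.37 in CI-994 and -1.03 in MK-1775. Rbfox1 passed in Vorinostat (-1.18), T5985871 (-1.19) and RDR00572 (-1.08), and Nova2 in T5985871 (-1.25). Among all genes, the share over 2-fold lower was 22.5% in Vorinostat, 26.1% in CI-994, 8.42% in T5985871, 2.69% in MK-1775 and 0.626% in RDR00572. The median log2 ratio of all genes ran from -0.44 in CI-994 to 0.0 and lay beyond 0.1 in 14 compounds, and after centring on it 3 of the 9 pairs remained past the fold, Ptbp2 in Vorinostat and CI-994 and Nova2 in T5985871, while Nova2 in GNF-5837 was added as higher.

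**Figure D1:**
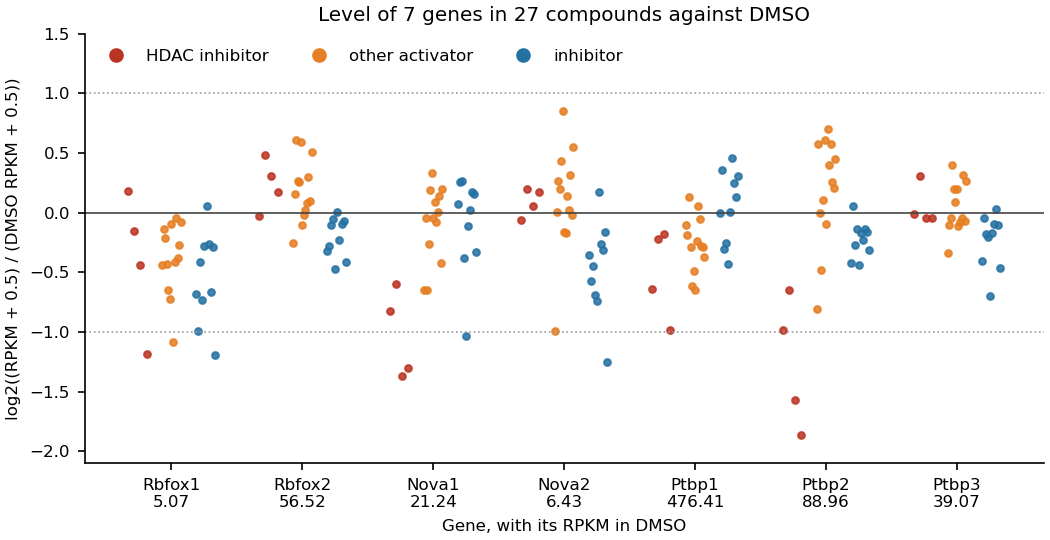
Each point is the log2 ratio of RPKM in 1 compound over DMSO (pseudocount 0.5), for the 7 members above 5 RPKM in DMSO, with HDAC inhibitors, other activators and inhibitors of microexons in columns. Solid and dotted lines mark no change and 2-fold; Ptbp2 spans -1.86 to 0.70, with all 4 HDAC inhibitors below 0.

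The members did not share a pattern across the 28 conditions. The closest pair was Rbfox2 and Nova2, with a Pearson r of 0.86 between their log2 RPKM, followed by Nova1 and Ptbp2 at 0.78, Rbfox2 and Ptbp3 at 0.72 and Nova2 and Ptbp3 at 0.72. Ptbp1 and Ptbp2 had an r of 0.26 and Rbfox1 and Rbfox2 one of 0.22. Conditions share normalisation and 1 DMSO control, and the values are descriptive. Among 11478 genes, those most like Rbfox2 were Map4 (0.927), Sptbn1 (0.901) and Kif1b (0.898), and those most like Nova2 were Zdbf2 (0.892), Pi4ka (0.881) and Dact3 (0.881). Ptbp1 was most like Uck2 (0.902), Ipmk (0.897) and Nop2 (0.893), and Ptbp2 most like RP23-324M14.1 (0.912), Clcn4 (0.893) and Zfp422 (0.892). For Nova1 these were Cetn3 (0.903), Cnot6 (0.899) and Sh3bgrl (0.879), for Ptbp3 Dip2a (0.859), Bbx (0.834) and Wrn (0.814), and for Rbfox1 Pfkp (0.755), Cerk (0.751) and Ckap4 (0.748).

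Whether the HDAC inhibitors moved these genes beyond the spread of libraries was asked with the reads of each library. Inclusion and exclusion reads were summed over a gene's exon events and scaled to all such reads of the library (RPM), a level that is comparable between libraries but not between genes, and limma was fitted to log2 values over 11994 genes in the 11 DMSO and HDAC inhibitor libraries. Of 32 pairs of member and compound, 26 passed an adjusted p of 0.05, or 23 of 28 without Rbfox3. That share is read against a background in which 76.2% of genes passed in Vorinostat, 77.1% in CI-994, 60.6% in BRD6688 and 61.1% in BRD4884. With a change over 2-fold required in addition, 7 of 32 pairs passed, or 4 of 28 without Rbfox3, against 39.6%, 40.1%, 20.3% and 24.0% of genes.

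Ptbp2 fell in all 4 compounds. It held 194, 195 and 203 RPM in the DMSO libraries, 45.5 and 53.3 in Vorinostat, 62.2 and 65.2 in CI-994, 136 and 125 in BRD6688, and 117 and 116 in BRD4884. Every treated library was below every DMSO library, with Vorinostat lowest. The log2 difference from DMSO was -2.00 ± 0.08 (SE, limma adjusted p = 3.2e-11) in Vorinostat, -1.63 ± 0.08 (2.6e-10) in CI-994, -0.60 ± 0.08 (2.1e-05) in BRD6688 and -0.76 ± 0.08 (1.7e-06) in BRD4884.

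Nova1, a neuronal regulator of inhibitory synapse transcripts, also fell in all 4. The DMSO libraries held 42.7, 40 and 40.3 RPM, Vorinostat 18.4 and 15.3, CI-994 16.1 and 17.6, BRD6688 26.6 and 27.9, and BRD4884 29.1 and 34.6. No treated library reached the DMSO range. The log2 differences were -1.28 ± 0.12 in Vorinostat and in CI-994 (limma adjusted p = 1.7e-07 and 1.8e-07), -0.59 ± 0.12 in BRD6688 (6.0e-04) and -0.37 ± 0.12 in BRD4884 (0.014). The BRD4884 call ended without its library A (-0.25, adjusted p = 0.178).

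Ptbp1 held 135, 152 and 138 RPM in DMSO, 80.4 and 88.8 in Vorinostat, 135 and 133 in CI-994, 123 and 130 in BRD6688, and 107 in both BRD4884 libraries. It fell in Vorinostat (log2 difference -0.74 ± 0.08, limma adjusted p = 5.4e-07) and in BRD4884 (-0.41 ± 0.08, 3.4e-04). In CI-994 (-0.08, 0.32) and BRD6688 (-0.16, 0.075) it did not pass, although with scaling by the median of ratios the BRD6688 difference was -0.28 (0.00764).

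Rbfox2, the Rbfox gene with the highest RPKM in these cells, rose in all 4, although in BRD4884 only with scaling to the library total. It held 168, 167 and 176 RPM in DMSO against 233 and 259 in Vorinostat, 259 and 262 in CI-994, 247 and 259 in BRD6688, and 205 and 197 in BRD4884. All treated libraries were above the DMSO range, BRD4884 by the least. The log2 differences were 0.53, 0.61 and 0.57 (SE 0.06, limma adjusted p = 4.1e-06, 8.9e-07 and 5.1e-06) and 0.24 in BRD4884 (0.0059). The difference in BRD4884 equalled the median of all genes there, was 0.01 (0.881) with scaling by the median of ratios, and did not pass without library A of BRD4884 (0.21, 0.0602). Its RPKM in BRD4884 was below DMSO, at 55.28 against 56.52.

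Ptbp3, a paralog expressed mostly in blood-forming cells, had higher RPM but not higher RPKM in 3 of the compounds. The DMSO libraries held 89.6, 91.5 and 102 RPM, Vorinostat 101 and 137, CI-994 139 and 141, BRD6688 158 and 152, and BRD4884 120 and 124. The Vorinostat libraries overlapped DMSO and the others did not. The log2 differences were 0.32 ± 0.10 in Vorinostat (limma adjusted p = 0.012), 0.57 ± 0.10 in CI-994 (1.7e-04), 0.72 ± 0.10 in BRD6688 (4.4e-05) and 0.37 ± 0.10 in BRD4884 (0.0068). With scaling by the median of ratios those in Vorinostat (0.25, 0.0628) and BRD4884 (0.15, 0.277) did not pass. Vorinostat also failed without its library B (0.11, 0.219) and BRD4884 without its library B (0.34, 0.0564). In RPKM, Ptbp3 was at 38.04 in Vorinostat, 37.98 in CI-994 and 38.75 in BRD4884 against 39.07 in DMSO, and only BRD6688 was above it, at 48.58.

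Nova2 and Rbfox1, the low-abundance members, rested on few reads. Nova2 held 6.29, 5.56 and 5.34 RPM in DMSO, 10.2 and 9.25 in Vorinostat, 7.91 and 7.46 in CI-994, 8.64 and 7.85 in BRD6688, and 4.42 and 6.97 in BRD4884. It rose in Vorinostat (log2 difference 0.76 ± 0.19, limma adjusted p = 0.0027) and in BRD6688 (0.52 ± 0.19, 0.032), the second of which was lost under the other scaling (0.40, 0.0788) and without either BRD6688 library, DMSO B or DMSO C (0.0718 to 0.164). CI-994 (0.42, 0.062) and BRD4884 (-0.04, 0.86) did not pass.

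Rbfox1 held 12, 10.3 and 13 RPM in DMSO, 7.2 and 7.46 in Vorinostat, 13.7 and 11.2 in CI-994, 15.9 and 18.6 in BRD6688, and 15.3 and 19.5 in BRD4884. It fell in Vorinostat (-0.67 ± 0.16, limma adjusted p = 0.0017) and rose in BRD6688 (0.55 ± 0.16, 0.0091) and BRD4884 (0.56 ± 0.16, 0.0082). The rises were lost without library B of BRD6688 (0.44, 0.0984) or library B of BRD4884 (0.38, 0.134), and that in BRD4884 also with scaling by the median of ratios (0.33, 0.0801). In RPKM, Rbfox1 lay below DMSO (5.07) in BRD6688, at 4.52, and in CI-994, at 3.6, so that the measures differ in direction there.

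Rbfox3 was close to absent in DMSO, with 2 reads in the 3 libraries together. It had 56 reads in Vorinostat, 223 in CI-994, 15 in BRD6688 and 35 in BRD4884. In RPM, this was 0, 0 and 0.0534 in DMSO against 2.16 and 2.25 in CI-994, and 0.985 and 0.459 in Vorinostat. Compounds that are no HDAC inhibitors also had reads, among them BTBS00065 at 0.301, GNF-5837 at 0.215 and NVP-AEW-541 at 0.196 RPM, above the BRD6688 mean of 0.126, and NVP-AEW-541 had 0.62 RPKM, next to 0.71 in CI-994. The ratio of read rates to DMSO was 199 in CI-994 (exact 95% interval 54.3 to 1650), 60.3 in Vorinostat (15.9 to 510), 32.6 in BRD4884 (8.38 to 280) and 11.4 in BRD6688 (2.64 to 102). The BRD6688 libraries held 2 and 13 reads, or 0.0336 and 0.219 RPM, so that library A lay below DMSO C at 0.0534. A read can serve several events. The intervals of the ratios, like the Wilson intervals of PSI, cover counting error only and not the spread between libraries. Rbfox3 met the minimum of reads for the limma fit only through the HDAC inhibitor libraries, so no p is given.

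**Figure D2:**
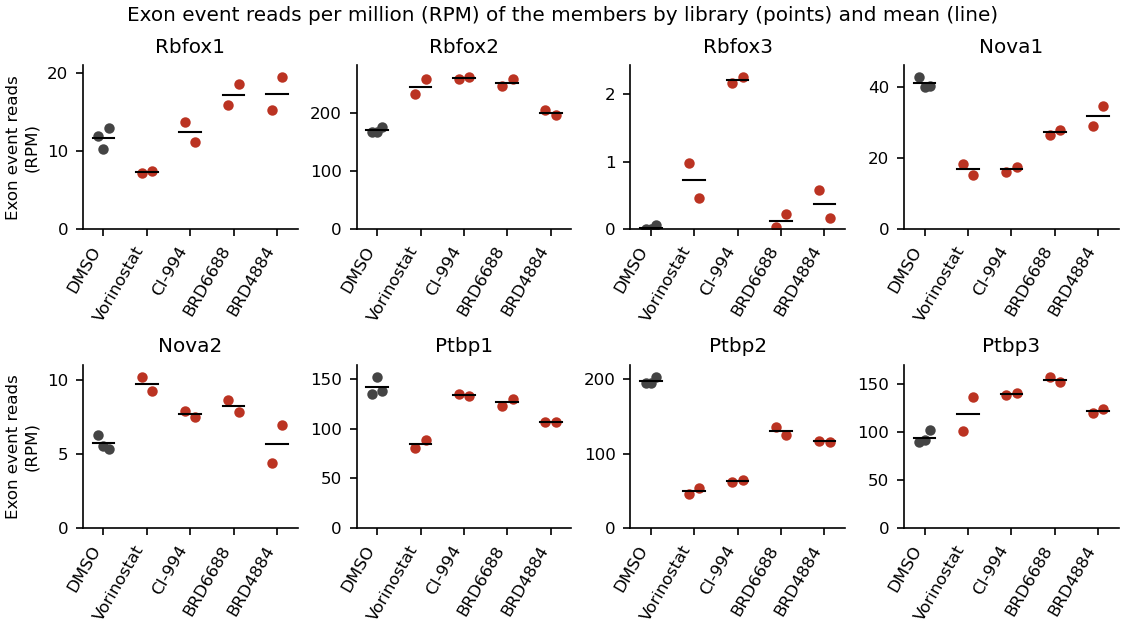
Exon event reads (RPM) of the 8 members in the 3 DMSO (grey) and 8 HDAC inhibitor (red) libraries; points are libraries, lines are means, and each axis starts at 0. Ptbp2 falls from 194 to 203 in DMSO to 45.5 and 53.3 in Vorinostat, while Rbfox2 lies above the DMSO range in all 4 compounds with this scaling.

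BRD6688 and BRD4884 were given at the same dose, so that they can be set against each other, and 8 members were compared with p-values adjusted over all 11994 genes. Rbfox2 was higher in BRD6688 by a log2 difference of 0.33 (95% interval 0.18 to 0.48, limma adjusted p = 0.00703), Ptbp3 by 0.35 (0.10 to 0.59, 0.0362) and Ptbp1 by 0.24 (0.07 to 0.42, 0.0408). These 3 of 8 compare with 28.7% of all genes, and the 8 include Rbfox3, which met the minimum of reads only through the HDAC inhibitor libraries. Nova2 (0.56, 0.11 to 1.02, adjusted p = 0.0616), Ptbp2 (0.16, -0.02 to 0.35), Nova1 (-0.22, -0.49 to 0.05) and Rbfox1 (-0.01, -0.39 to 0.37) did not pass. Rbfox3, with 15 reads in BRD6688 and 35 in BRD4884, differed by -1.02 and is described only. The doses of Vorinostat and CI-994 differed from these, and no comparison was made with them.

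The 23 remaining compounds had 1 library each and thus no replicate check, and their RPM values were set beside the DMSO libraries. Over 2-fold differences from the DMSO mean were found in 7 pairs of member and compound, 4 of them of the barely detected Rbfox3, whereas 7.19% of all pairs of gene and compound passed this limit and 1.72% to 2.97% of genes did when a DMSO library was set against the other two. Ptbp2 had 97.0 RPM in A-443654 (log2 difference -1.03), Nova2 had 15.1 in GNF-5837 (1.38) and Rbfox1 had 4.67 in T5985871 (-1.32). Ptbp2 was above all DMSO libraries in 9 compounds, led by GNF-5837 at 358, BTB12021 at 338, RDR00572 at 337 and S02045 at 329, and below them in 11. Ptbp1 was above the DMSO range in 4 compounds, all inhibitors, with 198 in T5635931, 188 in AW00693 and in T5985871 and 159 in T5758020, and below it in 10. Rbfox2 was above in 13 and below in 9, from 123 in T5985871 to 291 in GNF-5837. Rbfox1 was above the DMSO range in 5 compounds, inside it in 9 and below it in 9. By RPKM it was lower than in DMSO in all but 2 of the 27 compounds, so that the measures differ. In RDR00572, where Rbfox1 was over 2-fold lower in RPKM, its log2 difference in RPM was -0.31.

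How the members' own exons were spliced was measured as the percent spliced in (PSI), the share of transcripts that include an exon. An exon was called changed under the study's limits, a mean PSI at least 10 away from DMSO together with a posterior above 0.95, given the inclusion and exclusion reads, that the shift had that sign. Only libraries that passed the filters at an exon entered its call. Of the 85 exon events, 48 passed the filters for at least 1 compound and 10 were called in at least 1. Over pairs of exon and compound, 52 of 1231 were called (4.22%), 21 higher and 31 lower, against 1.60% of all exon pairs. Rbfox1 gave 27 of these calls in 124 pairs, and 5 of its 15 pairs were also called between DMSO libraries, where 0 of 126 pairs of the other members were. Those 5 calls are 3.55% of 141 member pairs between DMSO libraries. Of all exons, 0.858% to 0.973% were called when a DMSO library was set against the other 2. Without Rbfox1, 25 of 1107 pairs were called (2.26%), 4 higher and 21 lower.

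The 34-nt exon of Ptbp2, whose sequence stands above and whose position in mm9 is chr3:119427530-119427563, was called lower in 9 compounds and higher in 1, the most of any member exon outside Rbfox1. The DMSO libraries had 83.2, 87.0 and 81.6 PSI (mean 83.9 ± 2.8 SD, n = 3), and 106 to 1512 reads covered the exon per library. Inclusion was 53.4 PSI in A-443654 (95% Wilson interval 48.2 to 58.3), 67.7 and 47.3 in Vorinostat, and 63.2 and 66.2 in CI-994. Among the inhibitors it was 65.1 in AW00693, 66.2 in T5985871, 70.2 in T5963258, 70.5 in MK-1775, 72.5 in T5635931 and 73.9 in T5758020. All of these libraries lay below the lowest DMSO library. The exon was higher in BTB12021 at 94.2 (92.8 to 95.4), and at 93.6 in S02045, 93.3 in RH01954 and 92.3 in Trametinib, which missed the limit of 10. With a limit of 15 PSI, 5 compounds were called.

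BRD6688 (83.7 and 83.3) lay within the DMSO range, and BRD4884 had 81.5 and 74.0. In a limma fit on the log2 odds of inclusion over 3549 exons with a mean PSI of 5 to 95, the difference from DMSO was -1.94 ± 0.36 in Vorinostat (adjusted p = 0.0112) and -1.52 ± 0.36 in CI-994 (0.0278), while BRD6688 (-0.06, 0.962) and BRD4884 (-0.58, 0.461) did not pass. Of all exons, 13.4%, 12.8%, 3.27% and 3.89% passed in Vorinostat, CI-994, BRD6688 and BRD4884, and of 24 pairs of member exon and compound 6 did. In the fit first planned, over 49984 exons including those near 0 and 100 PSI, 1 of these 6 calls was kept, that of the Ptbp2 exon in Vorinostat (0.0469), and it was lost without library B of Vorinostat (0.0511). The 4 calls in CI-994 were each lost without either library of that compound (0.0559 to 0.189), where the remaining library is assumed to vary like the other groups.

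**Figure D3:**
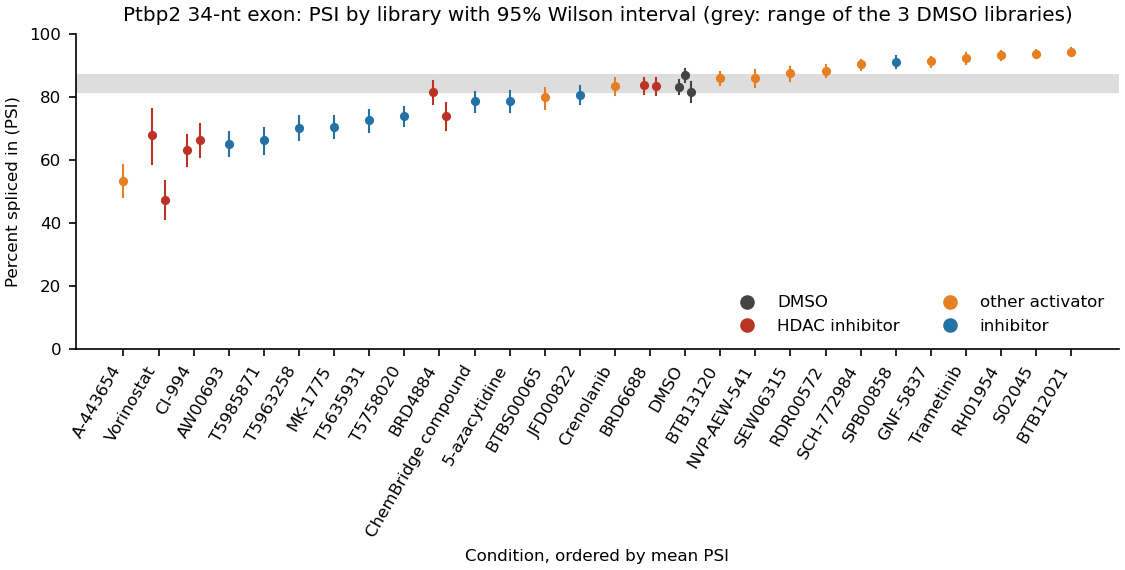
PSI of the Ptbp2 34-nt exon in each of 34 libraries (points) with 95% Wilson intervals (bars), ordered by the mean of the condition, with the DMSO range in grey. The conditions at the left, from A-443654 at 53.4 to T5758020 at 73.9, are those called lower, and BTB12021 at 94.2 is the one called higher.

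The paralogous exon stayed included in the other Ptbp genes. In Ptbp3 it was at 100 PSI in each DMSO library and at 99.8 or more in all compounds. In Ptbp1 it was at 99.2, 98.7 and 98.4 in DMSO and at its lowest in Vorinostat, with a mean of 95.2, but its reads failed the balance filter in every library.

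Across the 28 conditions, PSI of the Ptbp2 exon and the level of Ptbp2 were related with a Pearson r of 0.75 on log2 RPKM, and of 0.77 over the 24 conditions without HDAC inhibitors. The relation was not particular to Ptbp2. With Nova2 r was 0.6, and 0.77 without the HDAC inhibitors, and with Rbfox2 it was 0.48 and 0.67. Against Ptbp1 r was -0.09, and -0.41 without the HDAC inhibitors. Vorinostat joined the lowest Ptbp1 level, 240.76 RPKM, with a mean PSI of 57.5, whereas AW00693 joined 609.84 RPKM with 65.1. Both readouts come from the same libraries, so that r is descriptive.

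**Figure D4:**
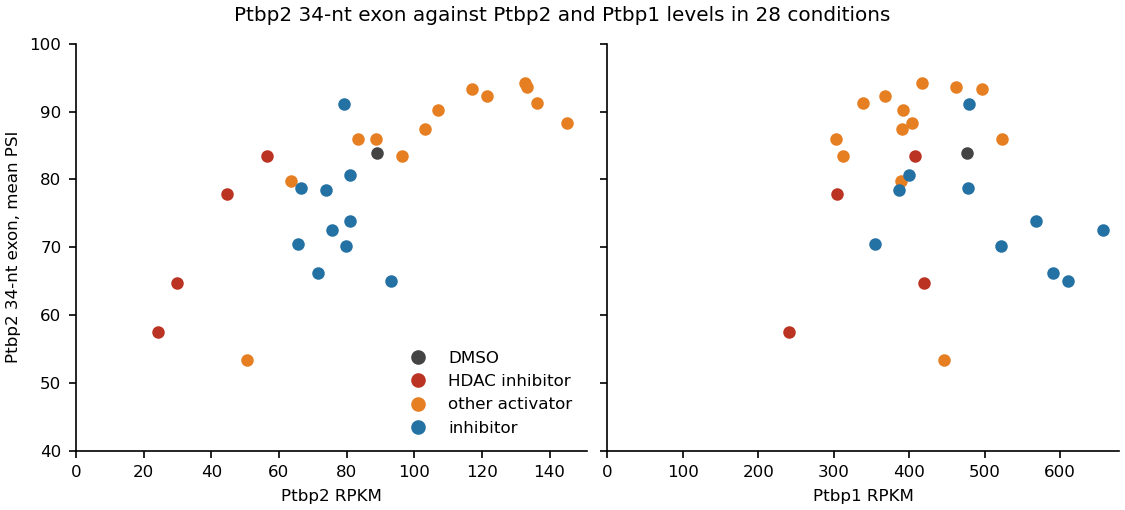
Mean PSI of the Ptbp2 34-nt exon (vertical axis, shown from 40 to 100) against the RPKM of Ptbp2 (left) and Ptbp1 (right), 1 point per condition. PSI is higher where Ptbp2 is higher (r = 0.75 on log2 RPKM), and r with Ptbp1 is -0.09, or -0.41 over the 24 conditions without HDAC inhibitors. Over those 24, r is 0.77 with Ptbp2 and also 0.77 with Nova2, which is not shown.

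The alternative 34-nt exon of Ptbp3 was included at 24.0, 19.2 and 27.4 PSI in DMSO. It was called higher in BTB12021 at 37.1, S02045 at 36.2 and GNF-5837 at 34.7, each above every DMSO library. Both CI-994 libraries, at 13.7 and 13.6, lay below DMSO (log2 odds -0.94 ± 0.20, limma adjusted p = 0.0187, and 0.068 over all exons), a shift just under 10 PSI. With a limit of 15 PSI none of these calls remained. Its PSI and that of the Ptbp2 exon had an r of 0.63 over the 28 conditions.

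Of Rbfox2, 2 exons were called, both in the lower direction. The 51-nt exon had 69.3, 70.4 and 78.2 PSI in DMSO, and 127 to 498 reads per library. It was called lower in 8 compounds, RDR00572 (56.2), T5985871 (57.6), CI-994 (62.4 and 56.1), T5635931 (59.8), MK-1775 (59.8), 5-azacytidine (60.3), a ChemBridge library compound (61.8) and BTB12021 (62.0). Activators and inhibitors are both among them, and the limit of 15 PSI left 2. The limma log2 odds in CI-994 were -0.87 ± 0.22 (adjusted p = 0.0364, and 0.208 over all exons).

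The 40-nt exon of Rbfox2 had 92.5, 90.1 and 83.5 PSI in DMSO. It was called lower in Vorinostat (68.6 and 74.9), CI-994 (73.7 and 77.0) and the MEK inhibitor Trametinib (78.3). BRD4884 (79.8 and 80) was also below all DMSO libraries, while BRD6688 (84.1 and 82.3) overlapped them. The limma log2 odds were -1.69 ± 0.36 in Vorinostat (adjusted p = 0.0167) and -1.43 ± 0.36 in CI-994 (0.0323). Over all exons they did not pass (0.0707 and 0.139), and Vorinostat also failed without DMSO B (0.0532) or its own library A (0.0993). Without DMSO C, which had the lowest inclusion of the 3, 6 compounds were called. Over the 28 conditions, PSI of this exon had an r of -0.48 with Rbfox2 log2 RPKM, so that inclusion was lower where the gene was higher. The relation was not particular to Rbfox2, since r was 0.56 with Ptbp1, 0.54 with Ptbp2 and -0.48 with Ptbp3. Over the 24 conditions without HDAC inhibitors, r was -0.52 with Rbfox2, -0.63 with Ptbp3 and 0.38 with Ptbp1. With Ptbp2 it was -0.09 there, so that the relation with Ptbp2 was seen only with the HDAC inhibitors included.

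**Figure D5:**
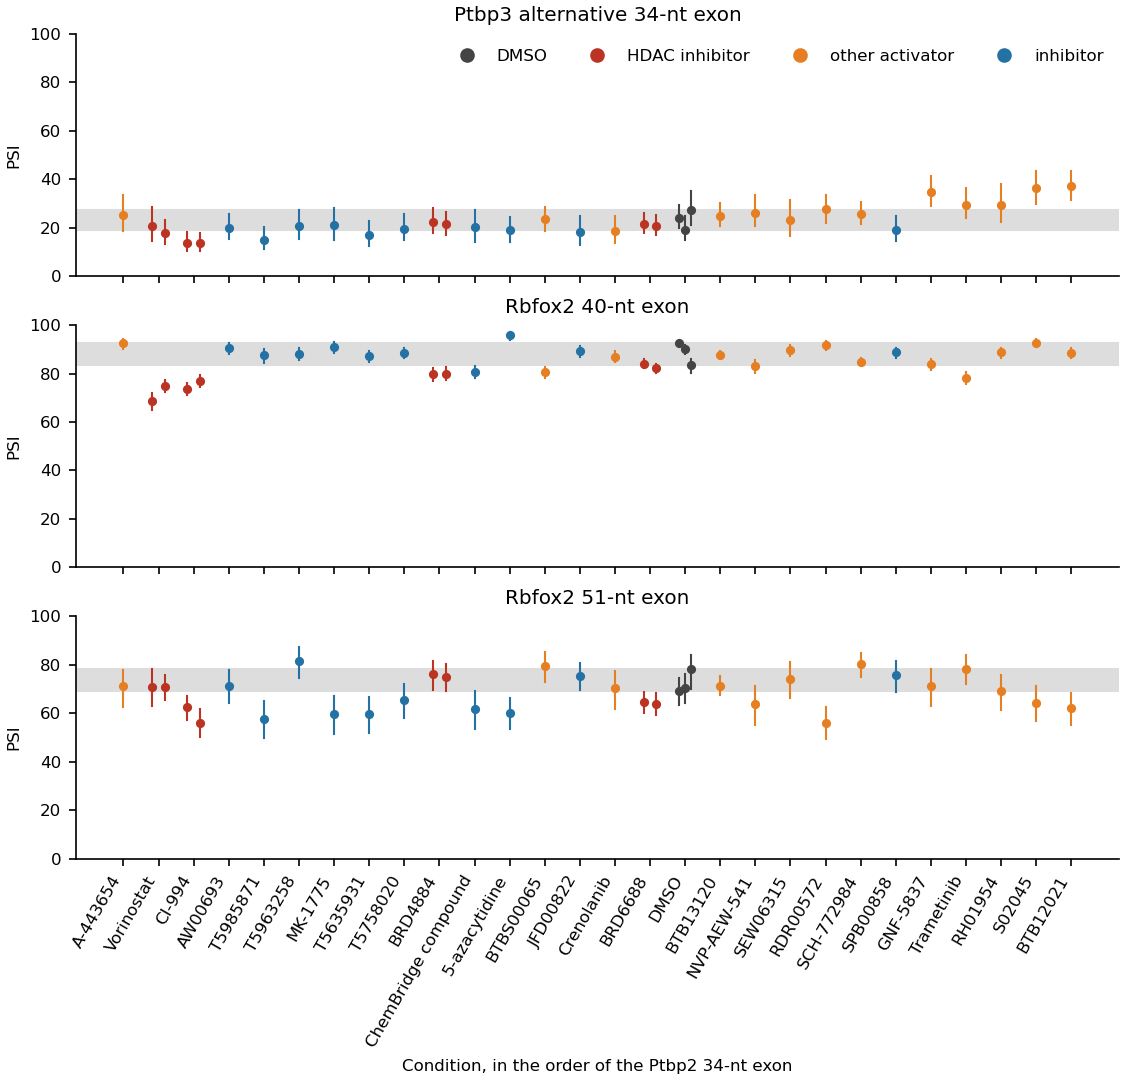
PSI with 95% Wilson intervals in each of 34 libraries for the alternative 34-nt exon of Ptbp3 and the 40-nt and 51-nt exons of Rbfox2, in the order of the Ptbp2 exon, with the DMSO range in grey. The Ptbp3 exon reaches 34.7 to 37.1 in 3 activators, and the Rbfox2 40-nt exon is lowest in Vorinostat and CI-994.

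Between BRD6688 and BRD4884, 0 of the 6 member exons in the fit and 0 of 3549 exons (0.00%) differed at an adjusted p under 0.05 in limma, with 270 at an unadjusted p under 0.05. For the Ptbp2 exon the log2 odds difference was 0.52 (95% interval -0.39 to 1.43), for the Rbfox2 40-nt exon 0.32 (-0.57 to 1.21) and for the Rbfox2 51-nt exon -0.79 (-1.35 to -0.23, adjusted p = 0.473).

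Rbfox1 exons were read from few junctions, with medians of 42 to 69 reads per library, and are described only. The 240-nt exon had 71.3, 80.6 and 55.8 PSI in DMSO and was called higher in 6 compounds and lower in 3. The 53-nt exon had 30.9, 39.8 and 23.9 PSI in DMSO, and was called higher in 9 and lower in 3, from 6.4 in BTB13120 to 61.4 in A-443654. The 40-nt exon, similar to that of Rbfox2, had 80.4, 100 and 52.3 PSI in DMSO. DMSO C, at 52.3, failed the filters, so that its calls were made against DMSO A and B. It was called lower in 2 compounds, S02045 at 38.4 and JFD00822 at 73.7, the latter inside the range of all 3 DMSO libraries. Without DMSO A it was called lower in 7 compounds, and without DMSO B in 10. The 81-nt exon was called in 3 compounds. DMSO C failed the filters at this exon too, so that its calls were made against DMSO A and B. The higher calls, in CI-994 and BRD6688, lay inside the range of all 3 DMSO libraries. The lower call, in JFD00822, lay below that range. The 93-nt exon was called in 1 compound, which became 2 without DMSO A and 0 without DMSO B or C. The 144-nt and 54-nt exons, at 69.2 and 77.4 PSI in DMSO, failed the filters in all 3 DMSO libraries, so that no compound could be compared.

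No tested exon of Nova1, Nova2 or Ptbp1 was called, in 93, 54 and 26 pairs. For Ptbp1 only 1 of 7 exon events passed the filters for any compound, so all 26 pairs are of that event. Whether the other exons of Ptbp1 changed could not be tested. The 102-nt exon of Nova1 stayed between 7.0 and 15.9 PSI (DMSO 8.4, 10.5 and 10.3). Ptbp2 also had its constitutive 140-nt exon called lower in T5985871 (86.2 PSI against 98.0, 98.3 and 95.6 in DMSO).

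Among introns and alternative splice sites, 1 of 1194 intron pairs (0.0838%, background 0.697%) and 12 of 1048 splice site pairs (1.15%, background 1.94%) were called. A pair of 3′ splice sites of the 140-nt exon of Ptbp2, 15 nt apart, was called in 5 compounds. The site giving the shorter exon was used at 72.4, 71.0 and 72.3 PSI in DMSO. Its use was higher in RDR00572 at 87.6, BTB12021 at 86.5 and S02045 at 83.9, and lower in T5985871 at 60.6 and CI-994 at 69.4 and 54. The 3 compounds with higher use are among the 4 with the highest Ptbp2 RPKM. The table lists the other site as a second event with the complementary values, so that 10 of the 12 calls are this choice counted from both sides.

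Other genes of neuronal splicing control gave a background for the members. Of 34 such regulators, 26 were above 5 RPKM in DMSO, and 42 of 709 pairs were past 2-fold (5.92%), 10 higher and 32 lower, a share close to that of all genes (6.53%). Rbm38 rose from 40.62 RPKM in DMSO to 271.03 in T5985871 by value, while the neuronal regulators Celf3 (105.11 to 24.54), Elavl4 (131.0 to 34.3), Elavl2 (122.96 to 47.24), Srrm4 (10.42 to 3.34) and Srrm3 (18.49 to 6.56), the last a pair of microexon activators, were lower there. Vorinostat had lower Msi1 (36.53 to 10.53) and Raver1 (56.68 to 20.82), a PTBP1 corepressor, and CI-994 lower Pcbp1 (152.57 to 59.38) and Hnrnpa1 (2045.75 to 830.08). Of all genes, 22.5% were over 2-fold lower in Vorinostat and 26.1% in CI-994. After centring, Pcbp1 (-0.91) and Hnrnpa1 (-0.86) in CI-994 were within 2-fold. Mbnl2 was higher in both compounds, from 27.07 to 64.49 in Vorinostat and 67.39 in CI-994. In limma, 9 of the 26 rose and 11 fell in Vorinostat, and 9 and 10 in CI-994. In BRD6688 12 rose and 8 fell, and in BRD4884 8 and 10. The share of all genes passing was 76.2% in Vorinostat, 77.1% in CI-994, 60.6% in BRD6688 and 61.1% in BRD4884. Exons in 9 genes with known PTB-regulated exons were called in 75 of 1504 pairs (4.99%), 32 higher and 43 lower, those in 9 genes of RBFOX targets in 2.88% of 3989 pairs and those in 8 genes of NOVA targets in 1.62% of 2967, beside 1.60% of all exon pairs. These counts take every exon event of the genes (108, 263 and 207), not only the regulated exons, and the calls came from 6, 8 and 4 genes. A response of the regulated exons themselves was not tested.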

How the data were processed

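Percent inclusion (PSI) came from the authors' vast-tools run on mm9, deposited as 1 percent value per event and library, beside a deposited quality score string that holds corrected inclusion and exclusion reads. For RPKM, the authors summed Salmon transcript estimates (version 0.10.2 in the submitters' processing notes, GENCODE transcripts) to genes and merged replicates before the values were deposited. The authors' pooled PSI table and their columns of fold changes, p-values and FDR values were not used. Groups came from the sample labels, and compound names, classes and targets from the study's supplement.

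Members and gene lists were chosen with earlier results of these data known. Log2 ratios of RPKM used a pseudocount of 0.5. Exon event reads, scaled to the library total (RPM), used a pseudocount of 0.1 and genes with a mean of at least 10 reads, and were tested with limma 3.58.1 (trend, R 4.3.3) with Benjamini-Hochberg adjustment over all genes. Reads were corrected and shared between events, so no count model was used. PSI calls used the vast-tools coverage and balance filters per library (introns: at least 15 reads, balance p over 0.05) in Python 3.11.15 with scipy 1.17.1. Log odds, with 0.5 added to both sides, were to be fitted over all exons passing the filters. Tested on simulated data, that fit gave many false calls, and exons with a mean PSI of 5 to 95 were used instead, with the planned fit as an alternative. The members were named throughout, with their exons called in at least 1 compound or at 10 to 90 PSI in DMSO, introns and splice sites called in 3 or more compounds, the 3 genes most alike by Pearson r, and up to 10 regulators by size of change. Other exons and sites named (the 34-nt exons of Ptbp1 and Ptbp3, and the 102-nt exon of Nova1) were added after their values were seen. No per-sample column was left unused. The levels of 2 neuroblastoma markers are not reported here.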

Additional observations from a re-analysis of the deposited data

Results flagged for a closer look

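Between BRD6688 and BRD4884, HDAC inhibitors given at the same dose, 3 members differed in exon event reads (RPM) by a limma test of the difference itself. Rbfox2 was higher in BRD6688 by 0.33 on the log2 scale (means 253 and 201, higher in 2 of 2 libraries), Ptbp1 by 0.24 (126 and 107) and Ptbp3 by 0.35 (155 and 122), each with both BRD6688 libraries above both of BRD4884. The median of all genes against DMSO was 0.16 in BRD6688 and 0.24 in BRD4884. This comparison was chosen after the data were seen, and 28.7% of all genes passed it.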

How the results depend on the processing

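No result past its threshold changed sign under any alternative run, while 9 differences that had not passed did, under 16 settings and with a size of at most 0.48 (log2). Counts moved as follows. Centring RPKM ratios on the median of all genes gave 4 pairs past 2-fold, 3 of the 9 and 1 other, and requiring 2-fold beside the adjusted p left 7 of 26 read pairs, or 4 of 23 without Rbfox3. Counts of read pairs in this paragraph otherwise include Rbfox3. A limit of 15 PSI left 25 of 52 exon calls and 2 of 13 calls of introns and splice sites. Leaving out each library in turn gave 23 to 26 read pairs, 7 to 8 pairs of single-library compounds, 50 to 64 exon calls, 11 to 14 intron and splice site calls and 2 to 6 exon pairs in the log odds fit. The fit over all exons called 7 member pairs, 1 of them shared with the 6 given; the 6 others are Ptbp2 exons with a PSI of at least 98.6 in every library of the fit, where the odds follow the number of reads through the 0.5 added. Replicate letters did not pair the samples (correlations of deviations -0.071 to 0.062); with the replicate block, 3 exon pairs passed, against 6. Scaling by the median of ratios moved the split of calls in BRD4884 from 5191 higher and 2137 lower to 3978 and 3620, and in BRD6688 from 4534 and 2735 to 3838 and 3464. The causes were not tested. Depth limits Rbfox1 exons, Rbfox3 and Nova2 most, and RPKM has no value per library.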

Other observations

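An event near the 5′ end of Ptbp1, chosen after its values were seen, differed in reads between compounds without a change in PSI. Reads over an alternative 3′ splice site of its 73-nt exon (DMSO 2.04, 2.72 and 2.62 RPM) were 15.9 RPM in T5985871, 10.5 in AW00693, 9.86 in T5635931, 7.97 in T5758020 and 4.45 in T5963258, and the site was used at 99.5 PSI or more in these libraries. All 5 are inhibitors, and they are the inhibitors with the highest Ptbp1 RPKM. In T5985871 the neighbouring 31-nt exon was at 92.0 PSI against 99.6, 99.4 and 99.2 in DMSO, in reads that failed the balance filter in all libraries.

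The intron between the 34-nt and 140-nt exons of Ptbp2 was retained at 16.9 PSI in 1 Vorinostat library (38 reads) and at 12.5 in the other (70 reads, not passing the filter), against 4.0, 3.2 and 1.1 in DMSO.

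In T5985871, the 43-nt exon of Rbfox1 was at 79.3 PSI in 9 reads, against 10.1, 5.6 and 7.6 in DMSO. No library passed the filters at this exon, DMSO included, so that no call could be made.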
